A study of Chlamydomonas reinhardtii with 2 samples.

Results

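Alkaline phosphatases and related phosphoesterases strip phosphate from organic compounds, often outside the cell, and transporters then carry the freed phosphate in. In algae and bacteria many of these enzymes are called phosphate-repressible, because their genes stay nearly silent while phosphate is plentiful. In Chlamydomonas reinhardtii, a unicellular green alga, the transcription factor PSR1 is required for much of this response. The genes described here are PHO1, PHOX, PHOD and MPA1, the 4 loci that carry those symbols among the 17147 loci of the deposited expression table. Symbols and annotations are those of that table.

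PHO1 (Cre08.g359300) is annotated as resembling the C-terminal part of the phosphatase that phoA encodes in the cyanobacterium Synechococcus. PHOX (Cre04.g216700) codes for the major secreted, calcium-dependent alkaline phosphatase of this alga and has a counterpart in Volvox carteri. PHOD (Cre05.g239850) resembles the PhoD phosphatase and phosphodiesterase of Bacillus subtilis. MPA1 (Cre01.g061000) codes for a putative metallophosphoesterase and is annotated as controlled by PSR1. The set thus holds 3 alkaline phosphatase genes of different annotated kinship and 1 metallophosphoesterase gene.

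RNA sequencing compared a phosphate-deprived and a phosphate-replete culture of strain CC-1690 (21gr), a wild type. The deprived cells spent 24 h in acetate medium (TA) without added phosphate, and the replete cells spent 24 h in the same medium with 1.1 mM phosphate (TAP). Light was continuous at 70 µmol m-2 s-1 for both cultures, which were shaken at 200 rpm and 25 °C. There was 1 library per condition, so no value has a replicate error, no test across samples was possible, and every difference is between these 2 libraries.

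Values are RPKM, reads scaled by transcript length and sequencing depth, which allows levels to be set side by side between genes. They summed to 855498 in the deprived and 901012 in the replete library. RPKM is a share of a library, so more transcript of a gene per cell and less RNA from the rest of the cell cannot be told apart. Each fold is the log2 ratio of deprived to replete RPKM after 1 RPKM was added to both, a scale that understates the change of weakly expressed genes. Genes were called different by size alone, at 2-fold and at 4-fold.

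All 4 phosphatase genes were higher in the deprived library. PHO1 had 198 RPKM in the deprived and 0.529 RPKM in the replete library, a log2 fold of 7.02. PHOX had 124 RPKM in the deprived library, against 0.953 RPKM in the replete library (log2 fold 5.995). Both transcripts were below 1 RPKM in replete cells and above the level of most genes in deprived cells.

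MPA1 had 40.9 RPKM in deprived cells and 1.67 RPKM in replete cells, a log2 fold of 3.97. PHOD stayed a weak transcript, with 3.51 RPKM in the deprived and 0.0556 RPKM in the replete library (log2 fold 2.10). It was the only one of the 4 whose level without phosphate lay below the library's median of 4.46 RPKM.

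**Figure D1:**
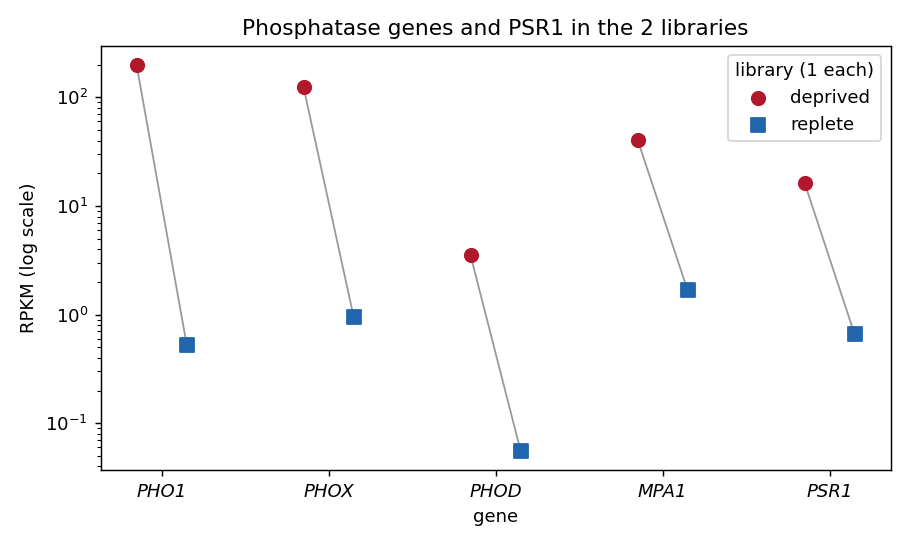
RPKM on a log axis for PHO1, PHOX, PHOD, MPA1 and the regulator gene PSR1, with the deprived library (circles) left of the replete library (squares) for each gene and a line joining them; each point is 1 library. Every gene is higher in the deprived library, from 3.51 RPKM for PHOD to 198 RPKM for PHO1, while the replete values run from 0.0556 RPKM for PHOD to 1.67 RPKM for MPA1.

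Expressed without any pseudocount, the plain ratio of deprived to replete RPKM was 374 for PHO1, 129.7 for PHOX, 63.2 for PHOD and 24.4 for MPA1. PHOD thus ranks above MPA1 by plain ratio and last once 1 RPKM is added. If the deposited values already hold an added count, as inferred below, the plain ratio of PHOD and its rank depend on that count. The order of PHO1 first and PHOX second was the same under both ways of computing the fold.

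The ranking of the genes by level was not the same in the 2 libraries. In deprived cells the order was PHO1, PHOX, MPA1 and PHOD. The PHO1 level was there 1.60 times that of PHOX and 4.83 times that of MPA1. In replete cells MPA1 was highest, followed by PHOX, PHO1 and PHOD, and PHO1 stood at 0.555 times the level of PHOX and 0.316 times that of MPA1. With 1 library per condition, neither order has an error.

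The make-up of the summed phosphatase transcript differed accordingly. The 4 genes together reached 366 RPKM in the deprived library, 0.0427% of its RPKM sum, and 3.21 RPKM in the replete library, 0.000356% of its sum. PHO1 supplied 54.1% of the summed level in the deprived and 16.5% in the replete library. For PHOX the shares lay closer together, at 33.8% in deprived and 29.7% in replete cells. MPA1 made up 11.2% of the deprived sum and 52.1% of the replete sum. PHOD made up 0.960% of the deprived sum and 1.73% of the replete sum. Its replete value has the pattern of a gene without reads, as described below. The alkaline phosphatase gene PHO1 held the largest share in deprived cells, and the metallophosphoesterase gene MPA1 held it in replete cells.

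Against all 17147 loci, PHO1 lay above 97.6% of genes in the deprived library and above 14.1% in the replete library. PHOX lay above 96.2% of genes without phosphate and above 21.3% with it. MPA1 stood higher than 90.0% of genes in deprived cells and 31.7% in replete cells. For PHOD the same positions were 44.0% in the deprived and 0.793% in the replete library. In the replete library all 4 therefore fell in the lower part of the range, below its median of 3.72 RPKM.

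The low replete values appear to rest on few reads. The deposited table holds no 0, and 1252 genes share a deprived to replete ratio of 0.870, as genes without reads would if a constant count had been added before scaling. Dividing the largest replete value among them by the replete value of each gave a whole number, within rounding of the deposited digits, for 1249 of these 1252, and this number reads as a length in bases. At some loci that length would be implausibly short, down to 1 base, and what the number stands for there is not known. That an added count lies behind this is an inference from the values, since the labels and the table name no such step. Among genes with a whole replete quotient above 100, 114 had a deprived value of 1.5 times their own unit and 63 of 2 times. Only 3 lay at 1.25 and 2 at 1.75 times (tolerance 0.01). An added constant worth 2 counts per library would give this spacing. Under this reading, reads and added counts together come to 2826 per 1000 bases of PHO1 transcript in the deprived and 6.58 in the replete library. For PHOX they come to 1766 in the deprived and 11.9 in the replete library, and for MPA1 to 585 in the deprived and 20.8 in the replete library. On this reading the replete levels of these 3 genes are the imprecise part of their folds.

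PHOD differed from the other 3 genes in that its replete value also had the pattern of a gene without reads. Its quotient was 2890.99, whole within the rounding tolerance of 0.026, and none of the other 3 genes had a whole quotient. Whole quotients were common at this size, with 55 among 86 other genes outside the shared ratio whose quotient lay within 500 of it. Read as a length of 2891 bases, it puts 143.1 reads behind the PHOD value in deprived cells. This is not a whole number, and neither are the 127.3 for GDPD1 and 430.6 for GDPD2, genes described below. How reads were counted is therefore not settled by this reading. Against a limit of 3 counts in the replete library, which covers counting error only, PHOD was then higher in deprived cells by at least 41.5-fold, with the added constant taken as 2 counts, and by at least 20.8-fold if it were 1 count. Its log2 fold of 2.10 depends on the pseudocount and is not a bound.

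Each of the 4 genes was past 4-fold higher in deprived cells. Among 13855 genes with a mean of at least 1 RPKM over both libraries, 1.03% were higher by this much, 5.59% were higher by at least 2-fold, and 1.64% were lower by at least 2-fold. All 4 phosphatase genes passed this filter. PHO1, PHOX and PHOD, whose replete values were below 1 RPKM, passed it through the deprived library alone, so they had to differ to be counted. Their count, and the median and ranks given next, are therefore a description only. The median log2 fold was 4.98 over the 4 genes, against 0.14 over the 13855 genes. The 13855 genes include 408 at the shared ratio of 0.870, which has the pattern of no reads, and without those the median was 0.16. By size of fold among the 13855 genes, PHO1 ranked 2, PHOX 6, MPA1 19 and PHOD 128.

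The split between higher and lower genes depends on scaling, with 775 higher and 227 lower at 2-fold as deposited. It was 897 and 184 with both libraries scaled to a common sum, 513 and 440 with library medians set equal, 534 and 407 under trimmed mean scaling, and 512 and 395 after quantile normalization. Under these scalings the lowest log2 fold was 6.88 for PHO1, 5.84 for PHOX and 3.80 for MPA1. PHOD lies at the edge of the 4-fold call, with 1.996 after quantile normalization, and with a pseudocount of 5 RPKM its log2 fold was 0.75, short of 2-fold.

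**Figure D2:**
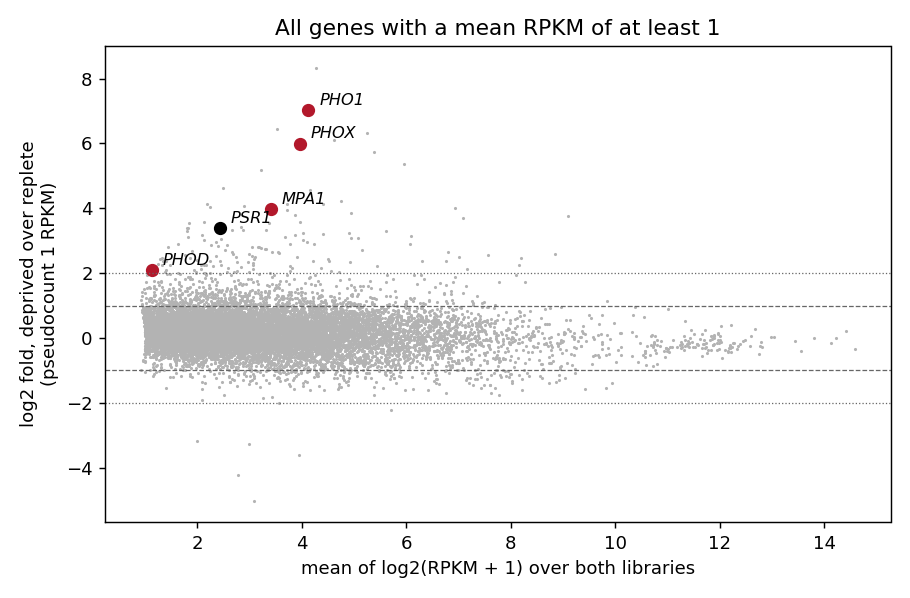
Log2 fold (deprived over replete, pseudocount of 1 RPKM) against the mean of log2(RPKM + 1) over both libraries for 13855 genes; red points are the 4 phosphatase genes, the black point is PSR1, and dashed and dotted lines mark 2-fold and 4-fold. PHO1, PHOX and MPA1 stand well above the bulk of genes, and PHOD sits just above the upper 4-fold line at the left edge, where transcripts are weak.

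**Figure D3:**
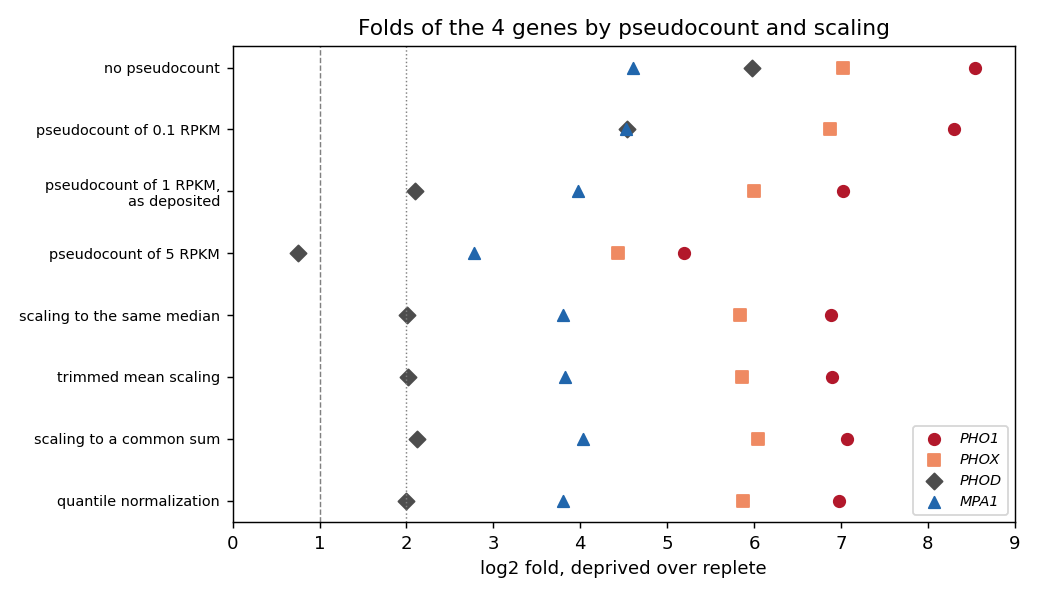
Log2 folds of PHO1, PHOX, PHOD and MPA1 under 4 pseudocounts (none, 0.1, 1 and 5 RPKM) and 4 scalings, with 2-fold (dashed) and 4-fold (dotted) marked. PHO1 and PHOX keep the first and second place throughout, PHOD moves from 5.98 without a pseudocount to 0.75 with 5 RPKM, and the scalings move each gene by less than the pseudocounts do.

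PSR1, the transcriptional regulator named in the annotation of MPA1, had 16.4 RPKM in the deprived and 0.659 RPKM in the replete library (log2 fold 3.39). Its fold ranked 30 among the 13855 genes, below PHO1, PHOX and MPA1 and above PHOD. PSR1 also passed the filter through the deprived library alone, so its rank is a description only. Its place above PHOD depends on the pseudocount, and by plain ratio PHOD was above PSR1. The PSR1 level in deprived cells lay below that of PHO1, PHOX and MPA1 and above that of PHOD.

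Likeness of level was measured as the distance over log2(RPKM + 1) in only 2 libraries. By it, PHO1 and PHOX were each among the 3 genes nearest the other. The gene closest to PHO1 was PHOX, at a distance of 0.76. The genes closest to MPA1 and PHOD lay nearer to them, at 0.31 and 0.061. Closest to PHOX was Cre01.g044300, a locus without a symbol that had 107 RPKM in deprived and 0.228 RPKM in replete cells, at a distance of 0.70, with PHO1 next. PTB5, a sodium/phosphate symporter gene, was the next for both, after those named, with 201 RPKM in the deprived and 1.94 RPKM in the replete library.

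Around MPA1 the nearest genes were Cre31.g779700 (34.2 RPKM in deprived and 2.01 RPKM in replete cells), TRP5, annotated as a transient receptor potential ion channel gene (50.3 RPKM in deprived and 2.34 RPKM in replete cells), and Cre14.g623650 (53.6 RPKM in deprived and 2.14 RPKM in replete cells). The genes nearest to PHOD were Cre16.g674900, Cre01.g067500 and Cre08.g382200, none with a symbol, at 3.04 to 3.88 RPKM in deprived and 0.0321 to 0.119 RPKM in replete cells. Neither PHOD nor MPA1 had another of the 4 among its 3 nearest genes.

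The counts for other phosphatase classes are to be read beside the shares over all genes, 5.59% higher and 1.64% lower at 2-fold. Of 8 other genes matched as acid phosphatases, metallophosphoesterases, phosphoesterases or nucleotidases, 6 passed the filter. At 2-fold, 1 was higher and 0 were lower, and the median log2 fold was 0.42. The higher one was CGL68, annotated as a vanadium-dependent haloperoxidase-like protein related to acid phosphatases, with 35.2 RPKM in deprived and 13.8 RPKM in replete cells (log2 fold 1.29). The metallophosphoesterase gene Cre17.g729650, which shares its annotated family with MPA1, had 5.22 RPKM in the deprived and 2.80 RPKM in the replete library (0.71). HAP1, a putative haloperoxidase gene, had 4.61 RPKM in deprived and 2.87 RPKM in replete cells (0.54). FAP160, a flagellar protein gene annotated as an acid phosphatase, had 14.3 RPKM without and 11.4 RPKM with phosphate (0.31). The remaining measured genes were slightly lower in deprived cells. They were Cre17.g718800, of the calcineurin-like phosphoesterase family (-0.17), and Cre01.g030250, a bisphosphate nucleotidase gene (-0.13).

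Glycerophosphodiester phosphodiesterases split the head groups of deacylated phospholipids. Of the 6 measured genes matched to them, 2 were past 2-fold higher and 0 lower, and their median log2 fold was 0.71. These 2, GDPD1 and GDPD2, passed the filter through the deprived library alone, so their count is a description only. At a mean of at least 5 RPKM only GDPD2 (log2 fold 4.12) and GDPD6 (0.81) remained, and the median of 2.46 is their midpoint. GDPD2 had 18.01 RPKM in deprived and 0.0957 RPKM in replete cells, and GDPD1 had 7.41 RPKM in deprived and 0.132 RPKM in replete cells. Like PHOD, both had whole quotients in the replete library, and against 3 counts GDPD2 was at least 125-fold higher and GDPD1 at least 36.9-fold higher in deprived cells, or at least 62.5-fold and 18.5-fold if the added constant were 1 count. GDPD6 followed, with 15.8 RPKM in deprived and 8.62 RPKM in replete cells (log2 fold 0.81).

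Further lists hold phosphatases that act on sugars, small metabolites or proteins. Among 24 sugar and small metabolite genes, 0 were higher and 1 was lower at 2-fold, and the median log2 fold was -0.0044, just above 0 with a pseudocount of 5 RPKM or a common sum. The lower one was GLPX1, a fructose-1,6-bisphosphatase gene, with 34.8 RPKM in deprived and 108 RPKM in replete cells (log2 fold -1.61). CPLD4, related to inositol monophosphatases, and PSP1, a phosphoserine phosphatase gene, had -0.84 and -0.72.

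Among 41 genes matched as protein phosphatases, which remove phosphate from proteins, 2 were higher and 1 was lower at 2-fold, and the median log2 fold was 0.05, which turned below 0 under median, trimmed mean and quantile scaling. RDP1, a rhodanese domain phosphatase gene, had 4.80 RPKM in the deprived and 1.52 RPKM in the replete library (1.20). RDP3, of the same family, had 173 RPKM in deprived and 80.8 RPKM in replete cells (1.09). PP2C6, a type 2C protein phosphatase gene, had 4.42 RPKM in deprived and 13.2 RPKM in replete cells (-1.39).

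The 6 genes matched as pyrophosphatases had a median of -0.40, and at 2-fold 0 were higher and 2 lower. IPY3, a soluble inorganic pyrophosphatase gene, had 95.7 RPKM in deprived and 226 RPKM in replete cells (-1.23). HIS4, a histidine synthesis gene whose product also has a pyrophosphatase activity, had 16.5 RPKM in deprived and 35.3 RPKM in replete cells (-1.06), and IPY1, another inorganic pyrophosphatase gene, had -0.51. The pattern for lipid phosphatases matched only PCT1 and PCT2, which are annotated as CDP-diglyceride synthetases and not as phosphatases, with log2 folds of 0.50 and -0.71.

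Apart from GDPD1 and GDPD2, the highest log2 fold among the measured genes of these lists was 1.29, for CGL68, below the 2.10 of PHOD. With a pseudocount of 5 RPKM 2 of these genes lay above PHOD, CGL68 having 1.10 against 0.75 for PHOD, and under the other pseudocounts and scalings 0 did. The text patterns also caught kinases, haloperoxidases and synthesis enzymes. They further caught Cre02.g132150, described as a TAP42-like protein, and Cre16.g648750, described as a predicted protein. Without all of these the medians were 0.09 for the other phosphomonoesterases, 0.04 for sugar and small metabolite genes, 0.02 for protein phosphatases and -0.28 for pyrophosphatases.

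**Figure D4:**
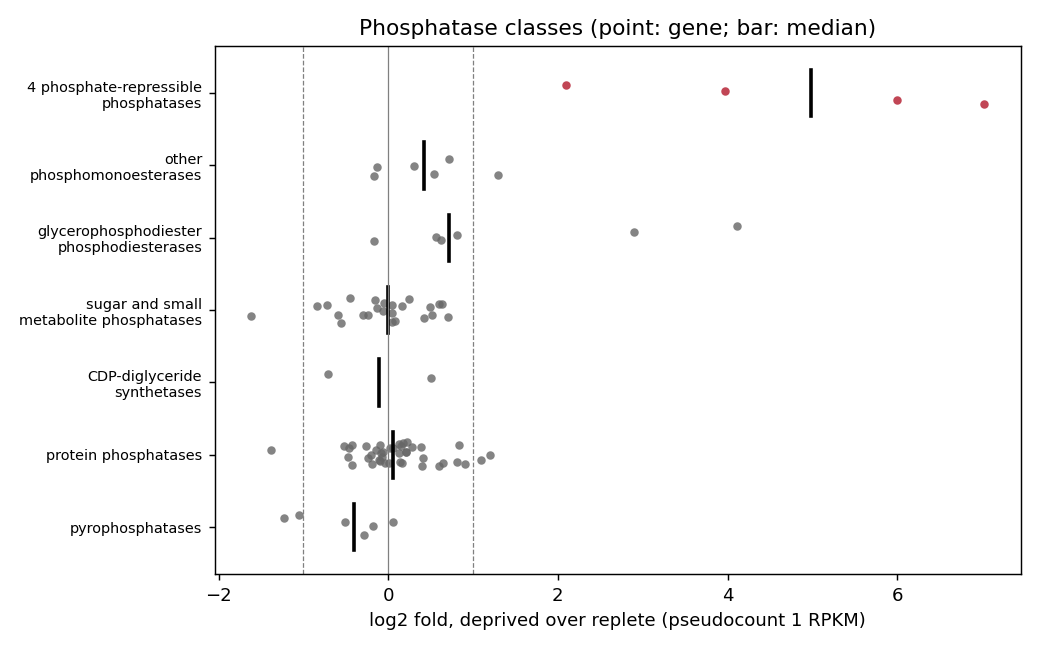
Log2 fold (deprived over replete, pseudocount of 1 RPKM) of each gene with a mean of at least 1 RPKM, by annotated class, with a black bar at the class median and dashed lines at 2-fold. The 4 phosphate-repressible phosphatase genes (red, top) run from 2.10 to 7.02, and of the other genes shown only GDPD2 and GDPD1 lie above 2.

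In the RefSeq order of assembly Chlamydomonas_reinhardtii_v5.5, which matched 3 of the 4 loci (not MPA1), 10 of the 12 genes within 2 places of PHO1, PHOX and PHOD were in the table. Genes next to these loci had log2 folds from -0.996 to 0.58 with the pseudocount of 1 RPKM, and 7 of these 10 passed the filter. By plain ratio of deprived to replete RPKM, 3 were past 2-fold, Cre05.g239800 at 2.10, Cre05.g239950 at 0.31 and Cre08.g359350 at 0.499. Of these, Cre05.g239800 did not pass the filter, with 1.15 RPKM in deprived and 0.548 RPKM in replete cells. Over the 13855 filtered genes, the plain ratio put 1376 past 2-fold upward and 356 past it downward. With the pseudocount of 1 RPKM, 0 of the 10 neighbours were past 2-fold. Over the 13855 filtered genes 5.59% were higher and 1.64% lower by this much. For 10 genes a count of 0 is near that share, so it sets the neighbours apart from no other genes. The lowest log2 fold was that of Cre08.g359350 beside PHO1, annotated as the biotin carboxylase component of acetyl-CoA carboxylase, with 96.5 RPKM in deprived and 193 RPKM in replete cells. On its other side Cre08.g359250 had 3.20 RPKM in the deprived and 2.08 RPKM in the replete library. The table's own build is not given, so only the neighbour order was used.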

How the data were processed

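The authors deposited RPKM values for 17147 loci in 1 phosphate-deprived and 1 phosphate-replete library. Bowtie is named, without a version, per the submitters' processing notes. No source used here names the counter, genome build, annotation version, filters or treatment of near-identical copies. Columns were matched to libraries by the library code in the labels.

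Folds were computed with Python 3.11.15, numpy 2.4.6 and pandas 2.3.3, with a pseudocount of 1 RPKM and, for counts over genes, a mean RPKM of at least 1. Comparison lists (6) were matched on symbols and annotation text. Named genes are the 4 phosphatase genes, PSR1 and the 3 genes nearest each phosphatase gene. Of each list, the 3 members furthest from 0 and members at least 4-fold different are also named. Neighbouring loci, FAP160, Cre17.g718800 and Cre01.g030250 were added after values were seen. The members and lists were chosen with earlier results of these data known. The calculation was tested on simulated libraries without an added count. There only genes well expressed in the replete library were changed, so it does not test folds at the low replete levels of the 4 phosphatase genes. Alternatives were other pseudocounts, scalings and filters.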

Additional observations from a re-analysis of the deposited data

How the results depend on the processing

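No paired analysis was possible because each condition had 1 library, and for the same reason no replicate could be left out. The direction of all 4 phosphatase genes was the same under every scaling tried. A pseudocount added equally to both libraries cannot change a direction, so those settings bear on size only. For PHO1, PHOX, PHOD and MPA1 in this order, the log2 folds were 8.30, 6.88, 4.54 and 4.53 with a pseudocount of 0.1 RPKM, 5.20, 4.43, 0.75 and 2.78 with 5 RPKM, and 8.55, 7.02, 5.98 and 4.61 without one. They were 6.88, 5.84, 2.01 and 3.80 with library medians set equal, 6.90, 5.86, 2.02 and 3.82 under trimmed mean scaling, 7.07, 6.05, 2.13 and 4.03 after scaling to a common sum, and 6.97, 5.87, 1.996 and 3.80 after quantile normalization. PHOD and MPA1 exchanged places with 0.1 RPKM and without a pseudocount. A pseudocount weighs most on low values by construction, and the replete value of PHOD is the lowest of the 4.

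Over all genes, those at least 2-fold higher numbered 775 as reported, 1277 with 0.1 RPKM, 286 with 5 RPKM, 1376 without a pseudocount, 513 after median scaling, 512 after quantile normalization and 511 at a mean RPKM of at least 5. Those at least 2-fold lower numbered 227 as reported, 115 with 5 RPKM, 356 without a pseudocount, and 440, 407 and 395 after median, trimmed mean and quantile scaling. At 4-fold, 143 were higher as reported, 236 with 0.1 RPKM, 57 with 5 RPKM and 254 without a pseudocount, and 7 were lower as reported, 13 with 0.1 RPKM and 17 without one. The median over all genes, 0.14 as reported, was -0.025 after median scaling, -0.0028 under trimmed mean scaling and -0.030 under quantile normalization.

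Among protein phosphatase genes, 2 were 2-fold higher as reported, 4 without a pseudocount, 1 with 5 RPKM, after median or trimmed mean scaling and at a mean of at least 5 RPKM, and 0 after quantile normalization, and 0 were 2-fold lower with 5 RPKM. Their median was -0.15, -0.12 and -0.10 after median, trimmed mean and quantile scaling. Sugar and small metabolite genes 2-fold lower numbered 2 after median, trimmed mean and quantile scaling, and their median was 0.0036 with 5 RPKM, 0.068 after scaling to a common sum and 0.040 without members described as something else. Pyrophosphatase genes 2-fold lower numbered 1 with 5 RPKM, after scaling to a common sum and without HIS4. Glycerophosphodiester phosphodiesterase genes 2-fold higher numbered 1 at a mean of at least 5 RPKM and 3 without a pseudocount. Their median of 0.71 ran from 0.43 with 5 RPKM added to 2.46 at a mean of at least 5 RPKM, where only GDPD2 and GDPD6 remained. Other phosphomonoesterase genes 2-fold higher numbered 0 without the haloperoxidase-like members, a removal chosen after seeing the data, as was leaving out genes at the shared ratio, which left the counts over all genes at 775 and 227. The cause of these shifts was not tested. Precision is limited by the single library per condition and, if the added-count reading holds, by few reads behind the replete values.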
